A study of Mus musculus with 12 samples.

Results

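The TCA cycle and the entry of pyruvate into it were followed through 35 genes, taken by symbol from a fixed list out of the 23420 genes of the count table. All 35 were in the table and all 35 passed the filter on low counts, so none was dropped from the tests. By role they are the 5 subunits of the pyruvate dehydrogenase complex, its 6 kinases and phosphatases, 3 genes of pyruvate import and carboxylation, 7 of the segment from acetyl-CoA to 2-oxoglutarate, 5 from there to succinate, 2 from fumarate to oxaloacetate, 3 of the malate-aspartate shuttle and 4 that use citrate or malate outside the cycle. RNA from 12 kidneys of adult male C57BL/6J mice was sequenced, in 3 groups of 4. The labels and the study's methods do not say whether a control kidney and a clamped kidney came from the same mouse. The 4 control kidneys were removed at nephrectomy, and the other 8 were clamped at the renal pedicle and taken after 24 h of reperfusion, with an ischemia of 20 min in the labels. The same 20 min stand in the labels of the controls. In the 8 ischemic kidneys the titles and the group field contradict each other. Set A is anaesthetised by title and conscious by group field, set B the reverse, so the sets keep neutral names and no direction is given to anaesthesia. Each library was made from the poly(A) RNA of part of a whole kidney, and the labels do not say more on the mice than strain and sex.

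Pyruvate is carried into mitochondria and is either oxidised to acetyl-CoA by the pyruvate dehydrogenase complex or carboxylated to oxaloacetate. Kinases switch the complex off by phosphorylating its E1 subunit, and phosphatases switch it back on. The proximal tubule depends on mitochondrial oxidation for its transport work, burns mostly fatty acids, lactate and glutamine rather than glucose, and makes glucose from lactate through pyruvate carboxylase.

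The libraries held from 15367342 to 44793350 counts in genes. Levels are given in CPM, the count scaled to the size of its library, and 3 counts, the floor used here, came to 0.067 to 0.195 CPM depending on the library, which covers counting error only. The first principal component of log2 CPM over all genes tested placed the controls at 73.4 to 76.8 and the kidneys after ischemia at -56.2 to -21.9. Replicate 4 of set B stood apart on the second component, with a score of 93.7 against -27.3 to 9.86 in the other 11 kidneys. RNA of the 45S ribosomal precursor, Rn45s, lay between 13446 and 16199 CPM in the controls and between 13899 and 30018 CPM in the ischemic kidneys. All 8 proximal tubule markers examined were present in the controls and fell in both sets (edgeR, adjusted threshold 0.05), and their sum was 7041 to 7867 CPM for the controls, 748 to 1427 CPM for set A and 449.6 to 1401 CPM for set B, lowest in its replicate 4. Fewer cells of a type and less RNA per cell cannot be told apart in whole tissue. Markers of the thick ascending limb summed to 1628 to 1714 CPM for the controls, 285 to 392 CPM for set A and 269 to 779 CPM for set B, highest there in replicate 4. Most of the control sum was Slc12a1, the only 1 of the 4 that passed the test in each set, while Umod had log2 fold changes of 0.16 and 0.16 and did not pass. Of 6 leukocyte markers 4 were in the table, at 16.1 CPM or less in sum in every kidney, and the 6 fat markers had no counts. Of 5 erythroid markers 3 were in the table, at 5.56 CPM or less in sum, and Hba-a1 and Hba-a2 had no counts in any kidney. Low counts or counts of 0 were therefore not taken to show that a cell type was absent. The 4 podocyte markers summed to 118 to 135 CPM for the controls, 134 to 252 CPM for set A and 161 to 230.5 CPM for set B, and 2 of them, Wt1 and Podxl, rose in both sets. No member of the collecting duct or endothelium lists passed in either set, with sums of 94.2 to 138 and 52.8 to 61.4 CPM for the controls and of 64.9 to 211 and 33.4 to 62.3 CPM over the ischemic kidneys. What part the tubular markers have in the changes given here was not tested.

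After ischemia, RNA of the pathway was lower as a whole, with large differences between its genes. The 35 genes together held 1.41% ± 0.0420 of all counts (SD, n = 4) for the controls, 0.624% ± 0.0569 for set A and 0.643% ± 0.0317 for set B. In CPM their sum was 13361, 14906, 14345 and 14433 for the 4 controls, 5709, 6879, 5759 and 6466 for set A and 6884, 6183, 6222 and 6327 for set B. No ischemic kidney reached the lowest control. In set A against control, 21 of the 35 genes fell at the adjusted threshold of 0.05 in edgeR's quasi-likelihood test, against 11.7% of the 11664 genes tested, and 2 were higher, against 10.5%. Set B gave 23 lower against 11.9% of all genes and 2 higher against 10.9%. In both sets alike 20 genes were lower (9.49% of all genes tested) and 2 were higher (9.07%). The 2 that rose were the kinase Pdk4 and the phosphatase Pdp1. The median log2 fold change of the 35 was -0.99 for set A and -0.93 for set B, beside -0.016 and -0.018 over all genes tested, and 27 and 28 of the 35 lay below 0. Both comparisons use the same 4 controls. Without replicate 4 of set B, 22 genes were lower and 2 higher in set B against control, while 1316 of all genes were lower and 1193 higher.

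Counted by overlap, 24 of the 35 genes in set A had every ischemic kidney below every control (15.7% of all genes tested) and 2 had every one above (12.6%). In set B the same count gave 23 below (15.1%) and 3 above (11.6%), the third being Got1. For each gene without overlap, the two-sided exact permutation test of CPM gave p = 0.0286, the smallest that 4 kidneys against 4 allow. Spread between replicate kidneys was small in the controls, where the median coefficient of variation over the 35 genes was 12.3%, from 1.72% for Pdha1 to 50.8% for Pdp2. It was 22.0% for set A and 20.7% for set B, beside 29.0%, 33.8% and 39.2% over all genes tested in the controls, set A and set B.

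**Figure D1:**
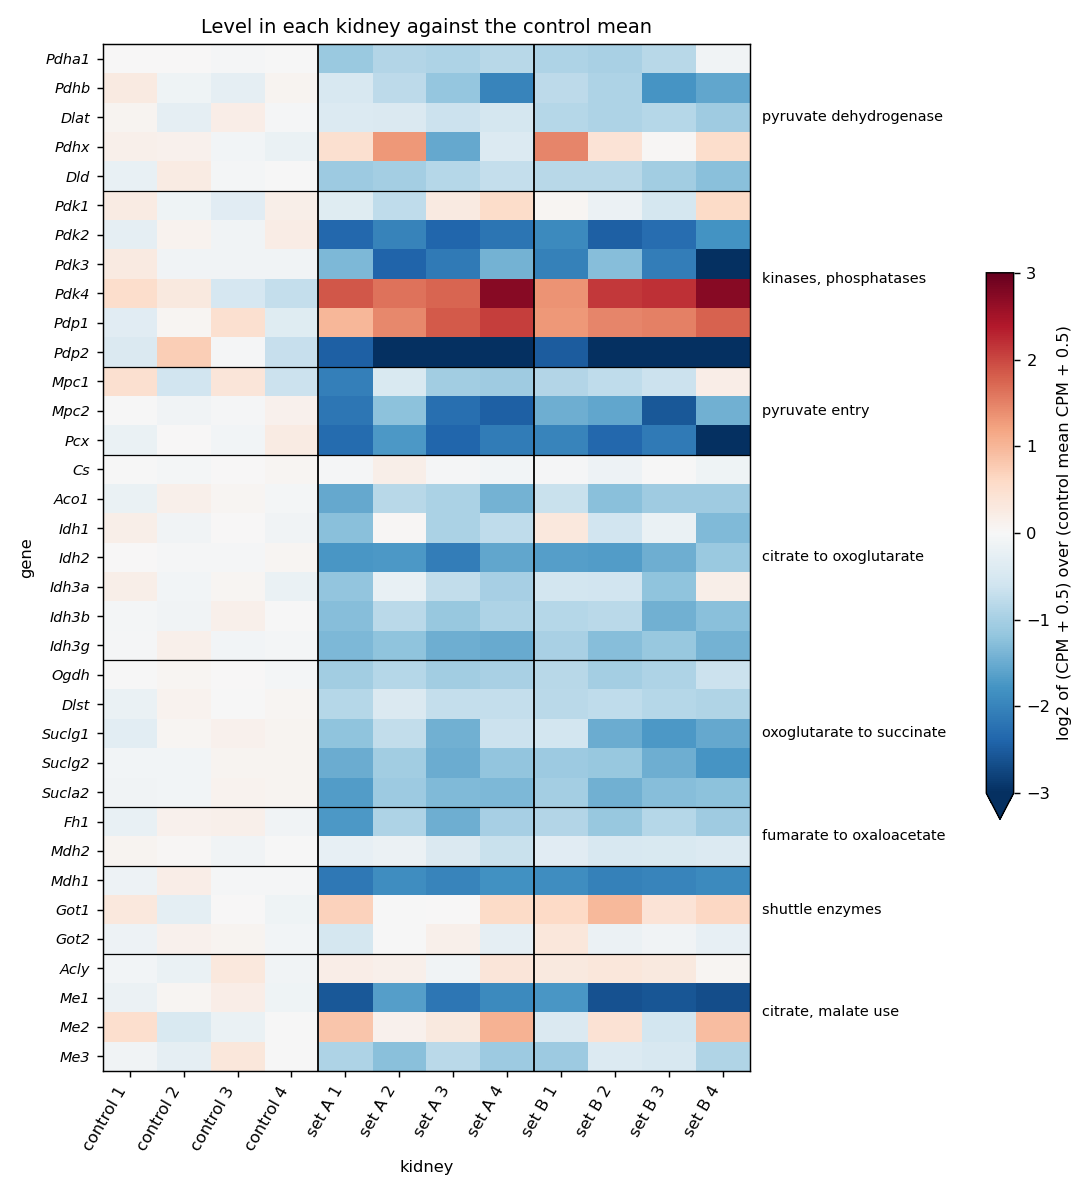
Level of the 35 genes (rows, by role) in the 12 kidneys (columns), as the log2 of CPM + 0.5 over the control mean + 0.5, with red above and blue below the control mean and the scale ending at -3 and 3. Most rows are blue in all 8 ischemic kidneys, Pdk4 and Pdp1 are red in all 8, and Cs, Got2 and Acly stay near white.

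Of the 5 pyruvate dehydrogenase subunits, 2 fell in both sets, 2 more passed in set B alone and 1 did not pass. Pdha1, the E1 alpha subunit that carries the phosphorylation sites, read 185, 185, 179 and 180.1 CPM in the controls, against 84.2, 98.1, 95.4 and 102 in the kidneys of set A and 94.9, 91.8, 102 and 168 in those of set B. All 8 ischemic kidneys were below the controls, and replicate 4 of set B lay well above the other 7. This is a log2 fold change of -0.94 (SE 0.172) for set A and -0.67 (SE 0.172) for set B, with edgeR adjusted p of 4.13e-04 and 0.00709. Without replicate 4 the value for set B was -0.92. On the other strand, 16.1% of its exon sequence overlaps Map3k15. Dld, the E3 subunit that this complex shares with the 2-oxoglutarate dehydrogenase complex, went from 386 ± 54.3 CPM (SD, n = 4) to 205 ± 23.9 for set A and 195 ± 26.0 for set B. Against the controls this was 1.88-fold lower for set A and 1.98-fold for set B, with edgeR adjusted p of 5.76e-05 and 2.47e-05.

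Pdhb, the E1 beta subunit, had 23.0, 17.2, 15.7 and 20.0 CPM (controls), 13.5, 10.9, 8.15 and 4.46 (set A) and 10.7, 9.68, 5.22 and 6.10 (set B). The groups did not overlap in either set, and edgeR's adjusted p was 0.0723 in set A (log2 fold change -1.03, SE 0.395) and 0.0285 in set B (-1.26, SE 0.396). The set B call was lost, with adjusted p of 0.0514 to 0.0860 in edgeR and log2 fold changes of -1.31 to -1.12, when control replicate 1, 2 or 4 or set B replicate 3 or 4 was left out. Of its 100-base windows, 10.5% occur also in the pseudogene Gm6123. Dlat, the E2 acetyltransferase core, read 51.3, 39.9, 55.4 and 47.4 CPM in the controls, against 36.6, 35.8, 30.9 and 33.4 in the kidneys of set A and 26.8, 25.2, 26.5 and 22.9 in those of set B. Every set B kidney was below every set A kidney, which was in turn below every control. The log2 fold change was -0.51 (SE 0.194, edgeR adjusted p = 0.0711) for set A and -0.93 (SE 0.194, edgeR adjusted p = 0.00134) for set B.

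Pdhx, which tethers E3 to the core, had the least RNA per kilobase of the 35 genes in the controls, and after ischemia only Pdp2 had less. It read 2.93, 2.86, 2.39 and 2.17 CPM (controls), 3.81, 7.15, 0.573 and 1.81 (set A) and 8.09, 3.61, 2.66 and 3.94 (set B), with overlapping groups in both sets. The ischemic kidneys spread widely on both sides of the controls, and edgeR's adjusted p was 0.858 for set A and 0.591 for set B. The 95% intervals of its log2 fold change ran from -1.40 to 2.13 and from -0.94 to 2.58, so its change was bounded only loosely.

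The regulators of the complex moved in opposite directions. Of the 4 kinases, Pdk2 and Pdk3 fell in both sets, Pdk4 rose in both, and Pdk1 did not pass the test. Of the phosphatases, Pdp1 rose in both sets and Pdp2 fell, past the threshold in set B only. Pdk2 (chromosome 11, 95026258 to 95041354, minus strand of mm10), the kinase with the most RNA per kilobase in these kidneys, had 803, 1047, 895 and 1125 CPM in the controls, against 187, 243, 185 and 211 in the kidneys of set A and 256, 177, 198 and 277 in those of set B. Its highest ischemic kidney was far below its lowest control. This gave a log2 fold change of -2.23 (SE 0.151) for set A and -2.09 (SE 0.152) for set B, with edgeR adjusted p of 4.12e-09 and 8.23e-09, which is 4.69-fold and 4.26-fold lower. Pdk3 read 72.8, 55.5, 56.2 and 55.8 CPM (controls), 23.4, 10.9, 13.3 and 22.3 (set A) and 14.5, 24.5, 13.8 and 4.38 (set B). Control replicate 1 was the highest and set B replicate 4 the lowest, and no ischemic kidney overlapped the controls. The fall was 3.44-fold for set A and 4.20-fold for set B, with edgeR adjusted p of 0.00134 and 3.85e-04.

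Pdk4 (chromosome 6, 5483351 to 5496309, minus strand of mm10), the kinase known to be induced by fasting and fatty acids, rose. Its level was 11.7, 9.85, 5.44 and 4.65 CPM in the controls, against 29.9, 25.3, 27.6 and 55.1 in the kidneys of set A and 21.02, 35.9, 37.8 and 54.9 in those of set B. The lowest ischemic kidney was above the highest control, and replicate 4 was the highest of each ischemia set. This gave a log2 fold change of 2.13 (SE 0.350) for set A and 2.24 (SE 0.350) for set B, with edgeR adjusted p of 1.91e-04 and 1.13e-04, 4.37-fold and 4.73-fold higher. Pdk1, a target of the hypoxia-inducible factor, read 28.1, 21.5, 18.6 and 26.7 CPM (controls), 18.3, 13.9, 28.6 and 35.1 (set A) and 24.7, 20.9, 16.3 and 35.8 (set B). The 3 groups overlapped throughout, with log2 fold changes of 0.014 (95% interval -0.65 to 0.67) and 0.043 (-0.62 to 0.70) whose sign changed with the fit or a kidney left out for set A and with a kidney left out for set B.

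Pdp1 (chromosome 4, 11958184 to 11966452), the calcium-sensitive phosphatase, had 9.98, 13.3, 17.8 and 9.77 CPM in the controls, against 25.8, 35.6, 47.1 and 54.9 in the kidneys of set A and 32.3, 35.8, 37.4 and 44.8 in those of set B. All 8 ischemic kidneys were above the controls. Its rise was 3.21-fold for set A and 2.95-fold for set B, with edgeR adjusted p of 1.20e-04 and 2.51e-04. Pdp2, the other phosphatase, had 86, 379, 144 and 128 counts in the controls, 20, 0, 12 and 0 for set A and 18, 0, 0 and 0 for set B. In 5 of the 8 ischemic kidneys no read was counted, where a count of 0 allows up to 3 counts, and the other 3 had 12 to 20. The log2 fold changes of -4.61 (SE 1.55, edgeR adjusted p = 0.0704) for set A and -5.12 (SE 1.58, edgeR adjusted p = 0.0485) for set B are imprecise. The call in set B was lost without any 1 of 8 kidneys (the 4 controls, replicate 3 of set A and replicates 2, 3 and 4 of set B), with edgeR adjusted p of 0.0575 to 0.157 and log2 fold changes of -5.30 to -4.73. Without replicate 1 of set B, the only kidney of that set with counts, the fitted value was -10.3, which depends on the prior count and is no bound. Set A passed without replicate 1 or 4 of set B, at log2 fold changes of -4.63 and -4.61 and edgeR adjusted p of 0.0452 and 0.0443.

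**Figure D2:**
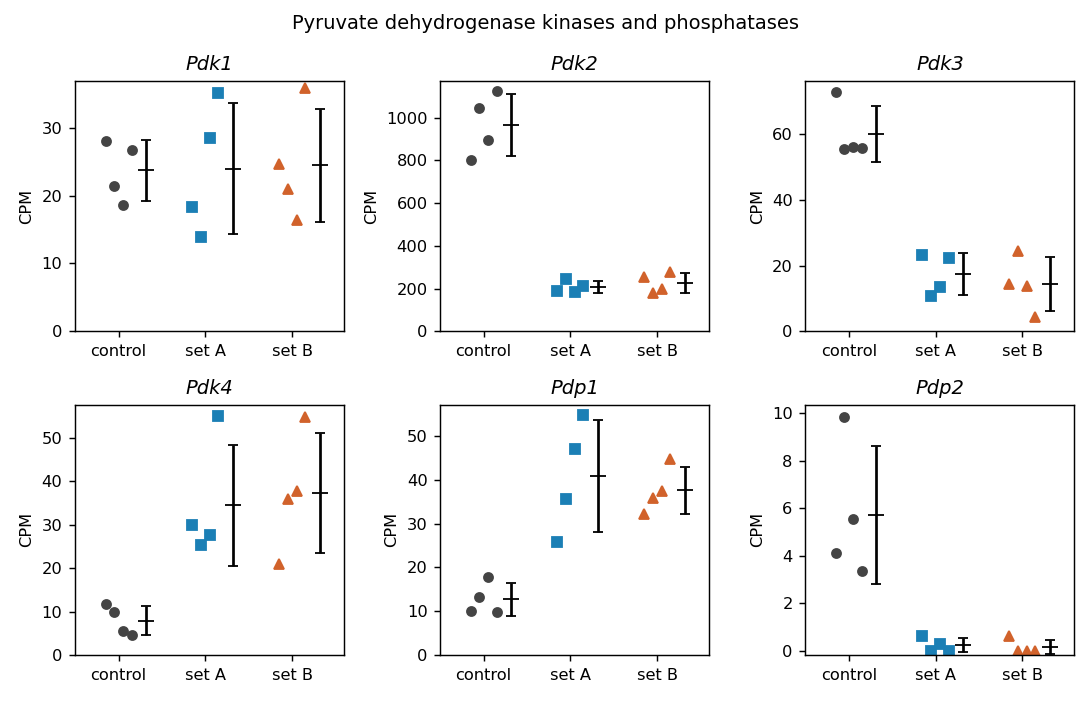
CPM of the 4 pyruvate dehydrogenase kinases and the 2 phosphatases in each kidney (points), with the mean and SD of each group (bars, n = 4) and axes that start at 0 except where an SD reaches below it. Pdk2, Pdk3 and Pdp2 are lower and Pdk4 and Pdp1 higher in all 8 ischemic kidneys than in the 4 controls, and Pdk1 overlaps.

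Because the kinases differ in length, their make-up was compared in CPM per kilobase of exon. The 4 together summed to 335 ± 43.0 CPM per kilobase (SD, n = 4) for the controls, 84.9 ± 9.45 for set A and 91.1 ± 14.4 for set B. Pdk2 made up 91.2% ± 2.37 of that sum for the controls, 76.9% ± 6.50 for set A and 78.3% ± 5.49 for set B. The share of Pdk4 was 0.695% ± 0.352 in the controls and 11.4% ± 3.56 and 11.7% ± 3.67 in the sets. Pdk2 thus remained the most abundant kinase RNA after ischemia, at 65.2 and 71.8 CPM per kilobase against 9.82 and 10.6 for Pdk4. The sequences just upstream of the start sites of these 2 genes, which moved in opposite directions, are given here from RefSeq in build GRCm38.p6 (Pdk4 at chr6:5496279-5496528 and Pdk2 at chr11:95041372-95041621, both on the minus strand), 5′ to 3′, with a CACGTG box in capitals.
Pdk4: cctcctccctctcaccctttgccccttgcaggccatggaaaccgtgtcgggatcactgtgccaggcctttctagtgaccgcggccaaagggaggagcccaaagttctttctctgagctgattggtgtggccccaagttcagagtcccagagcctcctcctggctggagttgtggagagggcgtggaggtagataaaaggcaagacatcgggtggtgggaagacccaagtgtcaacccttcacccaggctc
Pdk2: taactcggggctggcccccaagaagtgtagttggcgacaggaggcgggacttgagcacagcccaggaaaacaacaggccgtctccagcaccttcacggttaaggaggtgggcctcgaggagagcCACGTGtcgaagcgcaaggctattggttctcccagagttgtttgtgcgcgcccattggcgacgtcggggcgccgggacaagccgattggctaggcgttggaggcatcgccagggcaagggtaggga
The CACGTG box of Pdk2 begins at position -126 from its start site. A window at a further start site of Pdk2 and the window of Pdk4 held none of the 6 motifs searched.

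Motifs were searched on both strands in RefSeq windows from 250 bases before to 50 after a start site, for which 32 of the 35 genes and 8663 of the genes tested had an entry. CACGTG was present for 4 genes (Ogdh, Pcx, Pdk2 and Pdp2), 12.5% of the 32 beside 11.97% of the genes tested. The shorter ACGTG, which CACGTG contains, was present for 10 (31.3% beside 29.3%). The cyclic AMP element TGACGTCA was found for Mdh2 and Ogdh (6.25% beside 3.50%) and the NRF1 motif GCGCATGC for Ogdh (3.13% beside 5.93%). Neither the ERR motif TCAAGGTCA (0.266% of the genes tested) nor the forkhead motif GTAAACA (3.22%) was found in the windows of the 32. A match is a description of the letters and not a bound site.

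Pyruvate import and carboxylation fell in part, with 2 of 3 genes passing in each set. Pcx (chromosome 19, 4510472 to 4621752, plus strand), pyruvate carboxylase, read 963, 1103, 1034 and 1313 CPM (controls), 221, 335, 211 and 257 (set A) and 279, 214, 253 and 94.6 (set B). The highest ischemic kidney was far below the lowest control, and replicate 4 of set B was the lowest. This gave a log2 fold change of -2.11 (SE 0.231) for set A and -2.39 (SE 0.231) for set B, with edgeR adjusted p of 1.66e-06 and 4.03e-07, 4.31-fold and 5.24-fold lower. The mitochondrial pyruvate carrier is built from Mpc1 and Mpc2. Mpc2 went from 42.1 ± 3.08 CPM (SD, n = 4) to 10.6 ± 4.74 for set A and 12.7 ± 3.97 for set B, with edgeR adjusted p of 1.34e-04 and 5.31e-04. Mpc1 read 14.6, 6.71, 13.5 and 6.43 CPM in the controls, against 2.10, 7.36, 4.71 and 4.64 in the kidneys of set A and 5.39, 5.88, 6.43 and 11.8 in those of set B. Its groups overlapped in both sets, the controls alone spanned a range of 6.43 to 14.6 CPM, and edgeR's adjusted p was 0.141 and 0.610. Its transcript shares 19.7% of its 100-base windows with the pseudogene Mpc1-ps and with 4930506C21Rik, and the latter overlaps 23.1% of its exon sequence on the other strand.

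Between acetyl-CoA and 2-oxoglutarate, 4 of 7 genes fell in both sets, 1 passed in set A alone and 2 did not pass. Cs (chromosome 10, 128337734 to 128362479), citrate synthase, which joins acetyl-CoA to oxaloacetate, read 297, 289, 303 and 313 CPM (controls), 291, 337, 294 and 286 (set A) and 294, 269.7, 299 and 275 (set B). Its kidneys overlapped, and its log2 fold changes of 0.0076 in set A (95% interval -0.22 to 0.24) and -0.080 in set B (-0.31 to 0.15) had opposite signs. Of the 35 genes only Ogdh and Mdh1 had smaller standard errors. Idh2 (chromosome 7, 80094846 to 80115392), the mitochondrial NADP-dependent isocitrate dehydrogenase, moved most in this segment, with 787, 765, 762 and 810.1 CPM in the controls, against 233, 235, 184 and 265 in the kidneys of set A and 247, 244, 282 and 363 in those of set B. The controls lay within 762 to 810.1 CPM and no ischemic kidney came near them. This gave a log2 fold change of -1.77 (SE 0.138) for set A and -1.46 (SE 0.138) for set B, with edgeR adjusted p of 1.89e-08 and 2.15e-07.

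The NAD-dependent enzyme of the cycle has a catalytic alpha subunit and regulatory beta and gamma subunits. Idh3a, the alpha subunit, read 82.3, 68.7, 76.3 and 63.6 CPM (controls), 31.5, 62.4, 43.4 and 36.3 (set A) and 49.2, 48.8, 31.4 and 82.5 (set B). Set A lay below the controls without overlap, whereas replicate 4 of set B was as high as the highest control. The log2 fold change was -0.74 (SE 0.258, edgeR adjusted p = 0.0449) for set A and -0.46 (SE 0.258, edgeR adjusted p = 0.245) for set B. The set A call was near the threshold. Leaving out any 1 control or replicate 1, 3 or 4 of set A raised edgeR's adjusted p in set A to between 0.0564 and 0.160 (log2 fold changes of -0.80 to -0.59), and leaving out replicate 4 of set B brought set B to -0.75 with an edgeR adjusted p of 0.0274. Idh3b fell from 628 ± 49.5 CPM (SD, n = 4) to 309 ± 44.9 and 299 ± 60.7, and Idh3g from 252 ± 20.3 to 96.8 ± 9.80 and 110.0 ± 14.9, 2.04-fold and 2.10-fold lower for Idh3b and 2.61-fold and 2.29-fold lower for Idh3g in set A and set B. Aco1, the cytosolic aconitase that doubles as an iron regulatory protein, fell by log2 fold changes of -1.17 and -0.998 (edgeR adjusted p of 1.02e-04 and 4.79e-04). Idh1, the cytosolic NADP-dependent enzyme, ranged over 269 to 327 CPM in the controls, 122 to 298 for set A and 115 to 362 for set B. It did not pass in either set (edgeR adjusted p of 0.105 and 0.484), but passed in set A without replicate 2 of set A (log2 fold change -0.97, edgeR adjusted p = 0.0107) or without replicate 4 of set B (-0.65, 0.0328).

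From 2-oxoglutarate to succinate, all 5 genes fell in both sets. Ogdh (chromosome 11, 6291633 to 6356642), the E1 subunit of the 2-oxoglutarate dehydrogenase complex, had the smallest SE of the 35 genes and went from 2221 ± 73.4 CPM (SD, n = 4) to 1131 ± 70.5 for set A and 1234 ± 135 for set B. The log2 fold changes were -0.97 and -0.85, with edgeR adjusted p of 4.76e-07 and 2.88e-06. Dlst, its E2 subunit, moved least in this segment, with 383, 472, 436 and 458 CPM in the controls, against 241, 323, 265 and 268 in the kidneys of set A and 251, 256, 243 and 232 in those of set B. No kidney after ischemia reached the lowest control, with a log2 fold change of -0.67 (SE 0.120) for set A and -0.83 (SE 0.120) for set B, with edgeR adjusted p of 3.01e-04 and 3.21e-05. Succinyl-CoA ligase pairs a common alpha subunit, Suclg1, with a beta subunit that forms GTP (Suclg2) or ATP (Sucla2). Suclg2 moved most on the average of the sets, with 558, 551, 623 and 617 CPM (controls), 211, 286, 208 and 256 (set A) and 275, 268, 214 and 172 (set B). Again no ischemic kidney overlapped the controls, with a log2 fold change of -1.29 (SE 0.149) for set A and -1.34 (SE 0.149) for set B, with edgeR adjusted p of 2.45e-06 and 1.74e-06. The pseudogene Gm15163 shares 11.9% of its 100-base windows. Sucla2 fell 2.55-fold and 2.36-fold and Suclg1 1.98-fold and 2.38-fold, all 4 with edgeR adjusted p of at most 0.00769.

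In the last steps the fall was uneven. Fh1, fumarase, read 66.5, 84.6, 86.1 and 72.4 CPM in the controls, against 22.9, 40.4, 27.6 and 38.3 in the kidneys of set A and 41.9, 34.9, 42.6 and 36.8 in those of set B. The 2 sets lay together below the controls, with a log2 fold change of -1.26 (SE 0.204) for set A and -0.99 (SE 0.204) for set B, with edgeR adjusted p of 1.26e-04 and 0.00129. Mdh2, the mitochondrial malate dehydrogenase, had 429, 418, 379 and 401 CPM (controls), 342, 358, 299 and 256 (set A) and 322, 292, 294 and 306 (set B). Every ischemic kidney was below every control, but by a small margin, with a log2 fold change of -0.37 (SE 0.120) for set A and -0.42 (SE 0.120) for set B, with edgeR adjusted p of 0.0293 and 0.0141. Without control replicate 1, 2 or 4 or replicate 3 or 4 of set A, its call in set A was lost (log2 fold changes of -0.37 to -0.31, edgeR adjusted p of 0.0683 to 0.102). Succinate dehydrogenase, which oxidises succinate to fumarate but is outside the 35 genes, was read beside them. Its catalytic subunits Sdha and Sdhb fell by log2 fold changes of -1.42 and -1.20 for set A and -1.25 and -1.19 for set B, each with an edgeR adjusted p of at most 3.61e-06. The membrane anchors Sdhc and Sdhd did not pass, with log2 fold changes of -1.14 and -0.64 for set A and -0.58 and -0.78 for set B.

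Mdh1, Got1 and Got2 serve, with Mdh2, the malate-aspartate shuttle, which moves reducing equivalents from the cytosol into mitochondria, and of these 3 genes Mdh1 passed the test in both sets. Mdh1 (chromosome 11, 21556787 to 21572367, minus strand), the cytosolic malate dehydrogenase, had more RNA per kilobase than any of the other 34 genes in all 3 groups. It read 3483, 4430.1, 3808 and 3822 CPM in the controls, against 877, 1072, 977 and 1098 in the kidneys of set A and 1061, 949, 981 and 1036 in those of set B. The ischemic kidneys lay close together, and the highest was far below the lowest control. This gave a log2 fold change of -1.95 (SE 0.103) for set A and -1.95 (SE 0.103) for set B, with edgeR adjusted p of 1.32e-10 and 1.53e-10, the smallest of the 35 genes in each set. Mdh1 alone made up 27.2% ± 1.69 of the summed CPM of the 35 genes in the controls (SD, n = 4) and 16.2% ± 0.869 and 15.7% ± 0.470 in the sets. Without it the sum still went from 10375 ± 336 CPM to 5197 ± 485 and 5397 ± 285. Got2, the mitochondrial aspartate aminotransferase, read 65.8, 79.1, 77.1 and 68.9 CPM (controls), 50.1, 71.6, 80.8 and 60.3 (set A) and 91.5, 64.7, 67.8 and 61.7 (set B). Its groups overlapped in both sets, with log2 fold changes of -0.15 (95% interval -0.53 to 0.24) and -0.025 (-0.41 to 0.36), the latter changing sign with the scaling. Of its 100-base windows 25.3% occur also in other annotated genes, among them the pseudogene Got2-ps1, and Gm45760 overlaps part of its exon sequence on the other strand. The cytosolic partner Got1 had 12.7 ± 2.46 CPM (SD, n = 4) in the controls, 16.4 ± 4.24 for set A and 20.5 ± 3.42 for set B, without overlap between set B and the controls, but did not pass in either set (edgeR adjusted p of 0.495 and 0.118).

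Of the 4 enzymes that use citrate or malate outside the cycle, 2 fell in both sets. Me1 (chromosome 9, 86581371 to 86695953), the cytosolic malic enzyme that makes NADPH, read 177, 207, 228 and 182 CPM in the controls, against 33.8, 62.8, 44.1 and 52.6 in the kidneys of set A and 58.6, 32.3, 33.1 and 31.2 in those of set B. No ischemic kidney was near the controls, with a log2 fold change of -2.04 (SE 0.215) for set A and -2.35 (SE 0.215) for set B, with edgeR adjusted p of 1.01e-06 and 1.97e-07, 4.11-fold and 5.11-fold lower. Of its 100-base windows 17.2% occur also in other annotated genes, among them the pseudogenes Gm7049 and Gm7329. Me3, a mitochondrial malic enzyme, fell 2.02-fold and 1.62-fold, and in set B its call was lost without control replicate 3 (log2 fold change -0.59, edgeR adjusted p = 0.0630). Me2, the other mitochondrial form, ranged over 5.30 to 10.6 CPM in the controls, 8.09 to 15.7 for set A and 4.88 to 14.6 for set B and did not pass (edgeR adjusted p of 0.380 and 0.809). Acly, which splits cytosolic citrate to acetyl-CoA, read 623, 577, 823 and 611 CPM (controls), 752, 727, 612 and 854 (set A) and 809, 838, 809.5 and 685 (set B). Its groups overlapped, with log2 fold changes of 0.16 (95% interval -0.11 to 0.44) and 0.25 (-0.020 to 0.53).

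**Figure D3:**
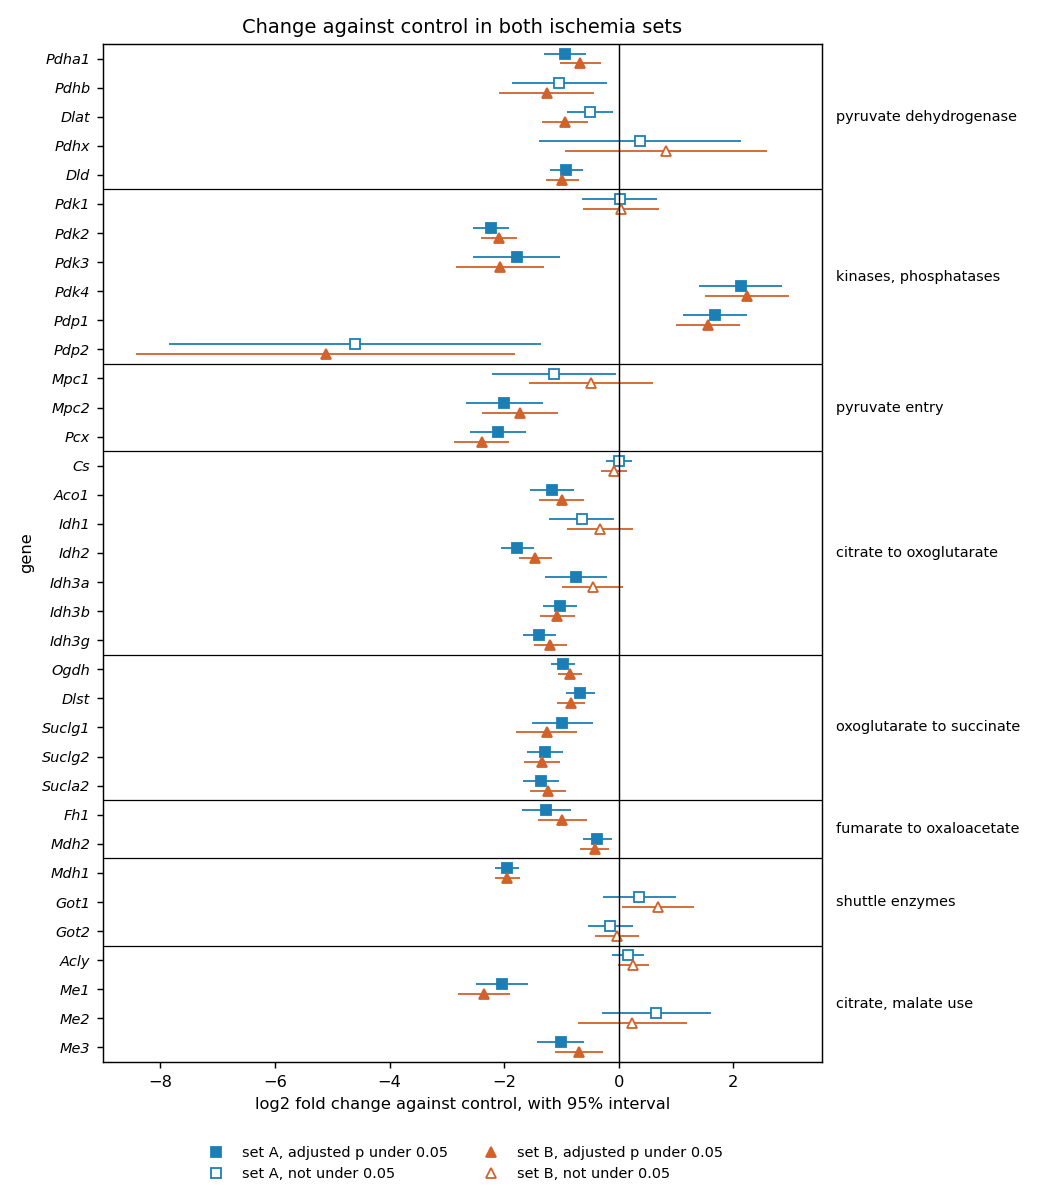
Log2 fold change against control of the 35 genes in set A (squares) and set B (triangles) from edgeR, by role, with 95% intervals; filled markers have an adjusted p below 0.05. Values run from -4.61 to 2.13 for set A and from -5.12 to 2.24 for set B, with Pdk4 and Pdp1 alone on the right among the filled markers.

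Subunits of a complex differed widely in reads counted per kilobase. In the controls, per kilobase of exon, Pdha1 had 48.8 CPM, Pdhb 4.91, Dlat 9.93, Dld 105 and Pdhx 0.658. For the NAD-dependent isocitrate dehydrogenase the levels per kilobase were 14.3 CPM for Idh3a, 184 for Idh3b and 93.4 for Idh3g. Suclg1, the alpha subunit that both forms of succinyl-CoA ligase need, had 17.7 CPM per kilobase beside 127 for Suclg2 and 53.0 for Sucla2. The order of the 35 genes by this measure began with Mdh1 (1514), Ogdh (407), Pdk2 (306) and Idh2 (302) in the controls, where Pdk2 and Idh2 did not differ beyond their spread. After ischemia Mdh1 (392 for set A and 392 for set B) and Ogdh (207 and 226) still led. Acly was now the third, at 139.5 and 149 CPM per kilobase against 125 in the controls, where it was the eighth. Pdk2 moved from place 3 to place 8 in both sets, and Pdk4 from place 32 to place 20. The exon length is that of the union of annotated exons, so a gene whose kidney transcripts are shorter is understated.

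**Figure D4:**
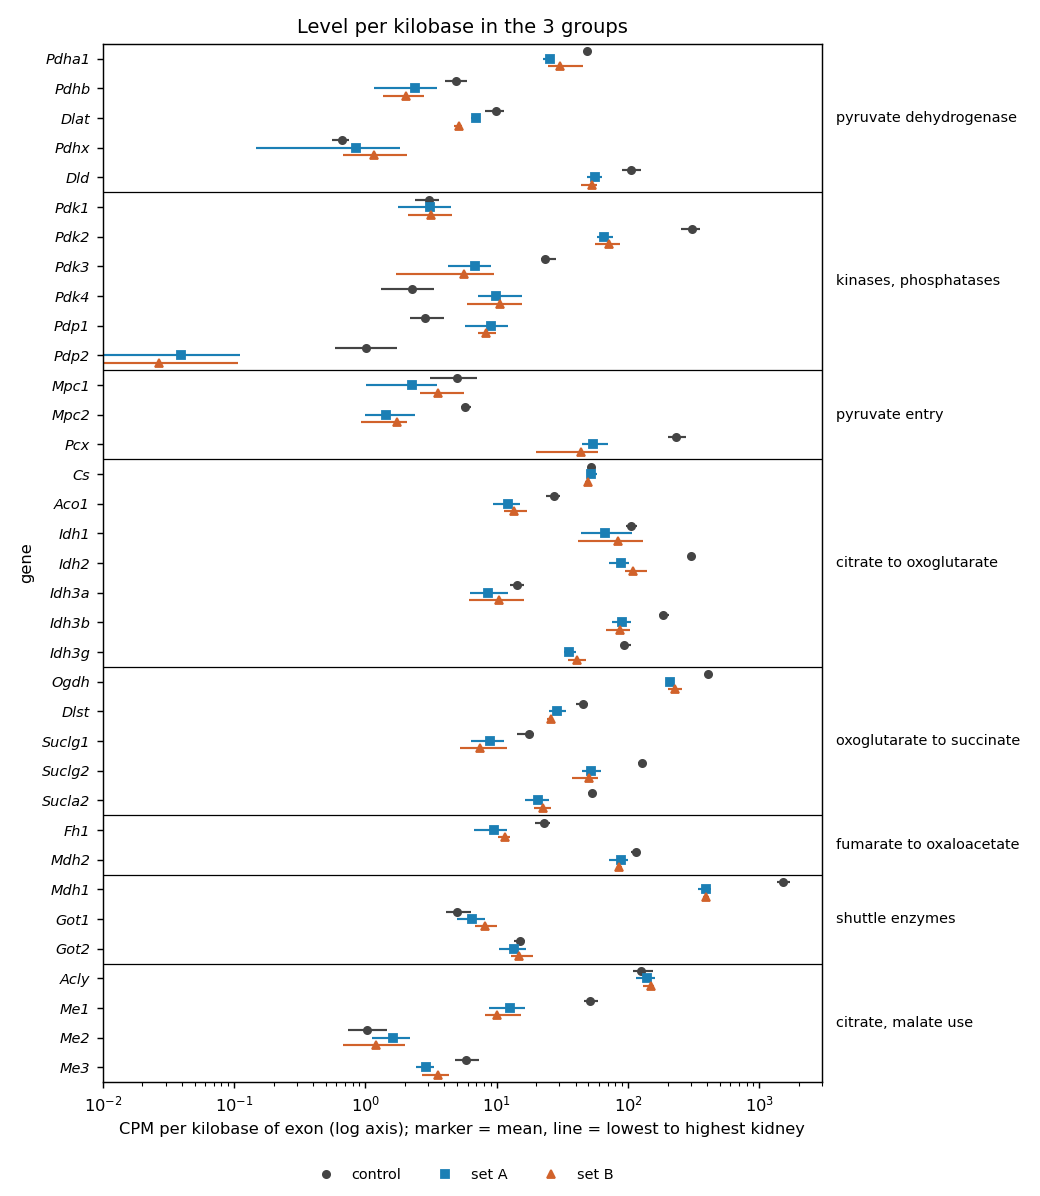
CPM per kilobase of exon of the 35 genes on a log axis, as the mean (marker) and the lowest to highest kidney (line, n = 4) of each group; lines of Pdp2 that reach 0 are drawn to the left edge. Levels in the controls run from 0.658 for Pdhx to 1514 for Mdh1.

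Ratios of 2 genes within a kidney do not depend on how the libraries were scaled, and 12 pairs of genes for related or competing steps were compared in 3 ways, 36 exact tests in all. The log2 ratio of Pdk4 to Pdk2 counts was -6.10, -6.73, -7.36 and -7.91 in the controls, -2.65, -3.26, -2.74 and -1.93 for set A and -3.60, -2.30, -2.39 and -2.34 for set B. It was higher in all 8 ischemic kidneys, by 4.38 and 4.37, a 20.8-fold and a 20.6-fold shift. For Mdh1 to Mdh2 the log2 ratio was 3.02, 3.41, 3.33 and 3.25 in the controls, 1.36, 1.58, 1.71 and 2.10 for set A and 1.72, 1.70, 1.74 and 1.76 for set B. The cytosolic form was lower against the mitochondrial form in every ischemic kidney, with shifts of -1.56 and -1.52. Pairs without overlap in both sets were also Pdk1 to Pdk2 (2.17 and 2.11), Pdk4 to Pdha1 (3.10 and 2.98), Me1 to Me2 (-2.72 and -2.54), Idh3a to Idh2 (0.99 and 0.94) and Pcx to Pdha1 (-1.18 and -1.78). The mean for Pcx to Pdha1 in set B rests in part on replicate 4, at -0.83 against 1.22 to 1.56 in the other 3.

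Idh1 to Idh2 shifted without overlap in set A only (1.06, with 1.03 in set B) and Mpc1 to Mpc2 in set B only (1.34, with 0.92 in set A). The difference between the sets did not pass for either (exact permutation p = 0.971 and p = 0.40). Suclg2 to Sucla2, the GTP-forming to the ATP-forming subunit, differed by 0.062 and -0.12, and Acly to Cs by 0.16 and 0.34, with overlapping groups in both sets. So did Got1 to Got2, at 0.51 and 0.73. Each of the 16 shifts without overlap had the smallest exact permutation p that 4 kidneys against 4 allow, 0.0286, and the Benjamini-Hochberg adjusted value over the 36 tests was 0.0643, so none passed after adjustment.

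**Figure D5:**
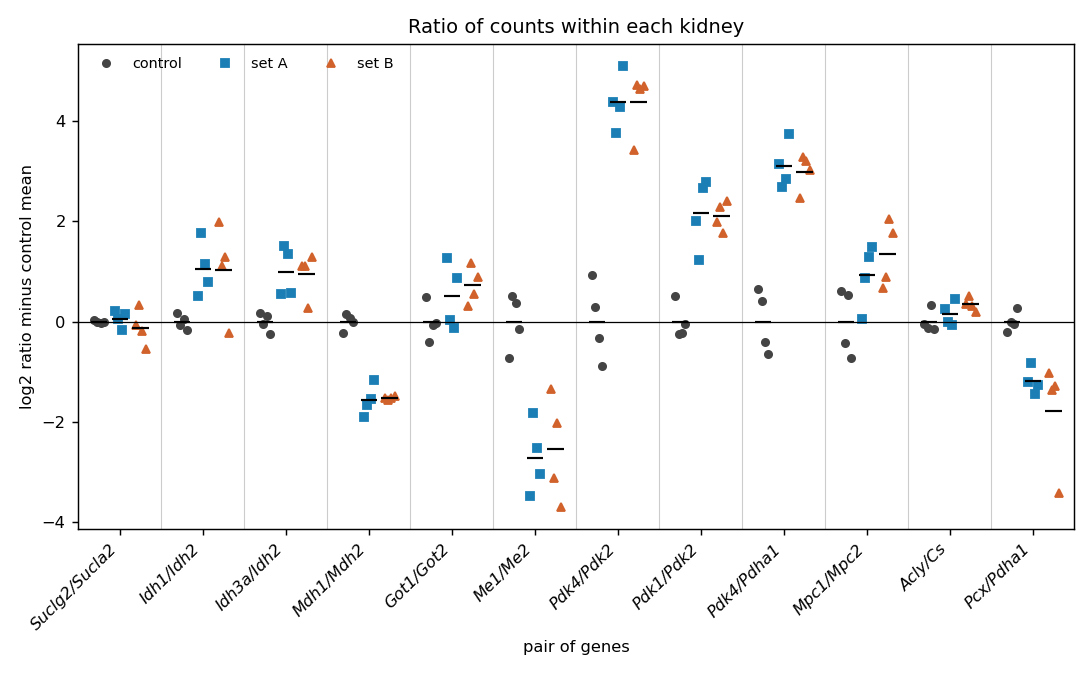
Log2 ratio of the counts of 12 pairs of genes in each kidney, less the control mean of the pair, with points for kidneys and a bar for each group mean (n = 4). Pdk4 to Pdk2 is 4.38 and 4.37 above the controls in the sets, and Suclg2 to Sucla2 stays near 0.

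Between the ischemia sets no member of the 35 passed edgeR's quasi-likelihood test with adjustment over all genes, where 0.00857% of the genes tested (1 gene) did. The smallest adjusted p among the 35 from edgeR was 0.962. At an unadjusted p below 0.05, 2 of the 35 were listed, a share near the 5.03% of all genes tested. These were Dlat, lower in set B by a log2 fold change of -0.43 (95% interval -0.84 to -0.022, edgeR unadjusted p = 0.0401), and Idh2, higher by 0.31 (0.021 to 0.60, edgeR unadjusted p = 0.0373). For Dlat every set B kidney was below every set A kidney, and for Idh2 the kidneys overlapped. The log2 fold changes of set B against set A ran from -0.51 to 0.65, with a median of 0.093, and for 29 of the 35 the 95% interval lay within a 2-fold change in either direction. The other 6 had wider intervals. In the 7 other fits and with any 1 kidney left out, 0 of the 35 passed between the sets.

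Reactions next to the cycle were read from a list of 26 genes, of which 24 passed the filter on low counts. In set A 14 of these 24 were lower and 1 higher at the adjusted threshold in edgeR, beside 11.7% and 10.5% of all genes tested, and in set B 12 were lower and 0 higher, beside 11.9% and 10.9%. In both sets 11 were lower, beside 9.49% of all genes, with medians of -1.10 and -0.92 over the 24. Bckdha, the E1 alpha subunit of the branched-chain 2-oxo acid dehydrogenase, fell most among those that passed in both sets. Its level was 114, 156, 120.2 and 165 CPM in the controls, against 26.8, 45.9, 33.2 and 19.2 in the kidneys of set A and 34.7, 21.2, 29.7 and 31.5 in those of set B. No ischemic kidney came near the controls, with a log2 fold change of -2.15 (SE 0.235) for set A and -2.24 (SE 0.236) for set B, with edgeR adjusted p of 1.66e-06 and 1.14e-06. No gene of the list rose in both sets. Pck2, the mitochondrial phosphoenolpyruvate carboxykinase, passed upward in set A (log2 fold change 1.03, edgeR adjusted p = 0.00312) and not in set B (0.49, edgeR adjusted p = 0.162), and was named after its values were seen.

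Among 12 transcription factors and coactivators known to act on mitochondrial or fuel genes, 4 fell in both sets, beside 9.49% of all genes tested, and 1 rose, which is near the 9.07% of all genes. Ppargc1a, the coactivator PGC-1 alpha, went from 421 ± 39.7 CPM (SD, n = 4) to 188 ± 57.4 for set A and 233 ± 82.9 for set B, with log2 fold changes of -1.16 and -0.85. The oestrogen-related receptors Esrra (-1.52 and -1.31) and Esrrg (-1.17 and -0.78) and the glucocorticoid receptor Nr3c1 (-0.46 and -0.60) fell as well on the log2 scale. Hif1a rose, from 327 ± 29.7 CPM (SD, n = 4) to 490.3 ± 56.1 and 465 ± 71.0, with log2 fold changes of 0.59 and 0.51. These 5 had edgeR adjusted p of at most 0.0214.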

How the data were processed

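RNA of 12 kidneys, 4 in each of 3 groups, was extracted with Trizol and made into stranded mRNA libraries. According to the labels and the study's methods the authors used FastQC, aligned single reads to mm10 with STAR and counted reads per gene with HTSeq, and the deposited values are raw counts of 23420 genes without normalization. Versions, the annotation release and the strand setting are not given in the sources used here. Counts were fitted with edgeR 4.0.16 in R 4.3.3, with all 12 kidneys in 3 groups, TMM scaling, edgeR's filter (minimum count 10, minimum total 15), which kept 11664 genes, two-sided quasi-likelihood F-tests and Benjamini-Hochberg adjustment over all genes tested, at a threshold of 0.05. The 95% intervals use the t distribution of that test. CPM used TMM-scaled library sizes. Single values were compared by exact permutation tests, and log2 ratios added 0.5 to each count. The labels do not say whether kidneys of a group were handled separately beyond being separate samples, so p-values measure the spread between these kidneys. No pair of replicates agreed within sampling noise (smallest chi-square over degrees of freedom 48.9).

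The members and gene lists were chosen with earlier results of these data known. Values per kidney are given for Pdha1 and Pdp1, chosen after their values were seen, and by rule for the 4 kinases, for the gene of largest and of smallest mean absolute change in each role, and for genes called in 1 set only or of opposite sign. The values of 1 of the 26 genes of neighbouring reactions are not reported here. Gene positions, exon lengths and shared 100-base windows come from GENCODE M21 (mm10), upstream sequences from RefSeq (GRCm38.p6). Alternatives were DESeq2 1.42.0, limma-trend (limma 3.58.1), RLE size factors, no low-count filter, a filter of over 1 CPM in 4 kidneys, only the 2 groups compared, a replicate block, a ratio offset of 0.125, and each kidney left out. Only the main edgeR fit was run on simulated counts, with known changes placed in set A, and its outcome there is not reported here. Tables, exact tests and plots were made in Python 3.11.15 (pandas 2.3.3, NumPy 2.4.6, matplotlib 3.10.9, SciPy 1.17.1).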

Additional observations from a re-analysis of the deposited data

Results flagged for a closer look

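In 12 of the 105 groups of 4 kidneys formed by the 35 genes, 1 kidney stood further from the rest than Dixon's criterion at 95% allows. About 1 group in 20 would by chance if the groups were independent and their values normally distributed. The groups share the same kidneys, and a group with counts in only 1 kidney is always flagged, so no excess is read from this number. Replicate 4 of set B, which stood apart on the second principal component, had 168 CPM of Pdha1 against 91.8 to 102 in the other 3, and 11.8 CPM of Mpc1 against 5.39 to 6.43. Replicate 1 of set B had 55.8 CPM of Suclg1 against 24.4 to 28.8, 58.6 CPM of Me1 against 31.2 to 33.1, and 0.606 CPM of Pdp2 where the other 3 had no counts. Replicate 3 of set B had 6.82 CPM of Mpc2 against 14.0 to 15.2.

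In set A, replicate 2 had 17.6 CPM of Mpc2 against 7.29 to 8.92 and 337 CPM of Cs against 286 to 294, and replicate 4 had 55.1 CPM of Pdk4 against 25.3 to 29.9. Among the controls, replicate 1 had 72.8 CPM of Pdk3 against 55.5 to 56.2 and 65.7 CPM of Suclg1 against 85.4 to 88.6, and replicate 2 had 282 CPM of Idh3g against 238 to 246. The cause of these differences was not tested.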

How the results depend on the processing

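Under the 7 other fits and with each kidney left out, the number of the 35 genes lower in set A lay between 19 and 24 and in set B between 21 and 23, 2 were higher in each, and none passed between the sets. With the replicate number as a block the counts were 21 and 2 for set A, 23 and 2 for set B and 0 between the sets. Over all genes the block gave 1334 lower and 1157 higher for set A and 1354 lower and 1177 higher for set B. Same-numbered kidneys did not deviate together (r from -0.0554 to 0.0452), so the numbers were not taken to pair kidneys. Signs changed only for genes that passed in no comparison. The log2 fold change in set A was -0.0109 for Cs and -0.00348 for Pdk1 without a low-count filter, -0.128 for Pdhx and -0.0588 for Pdk1 in limma-trend, and -0.0264 and -0.0325 for them with the block. For Got2 in set B it was 0.00387 in DESeq2, 0.00347 with RLE size factors and 0.00288 with the 1 CPM filter. With a kidney left out, the log2 fold change in set A ranged from -0.0511 to 0.0526 for Cs, from -0.328 to 0.728 for Pdhx and from -0.246 to 0.202 for Pdk1, and in set B from -0.200 to 0.176 for Pdk1, from -0.187 to 0.0371 for Got2 and from -0.125 to 0.454 for Me2. Calls in set A were gained for Dlat (-0.483) and Pdhb (-1.01) in DESeq2, for Pdhb and Idh1 (-0.616) with only the 2 groups compared, for Idh1 without a low-count filter (-0.665) and for Pdp2 in DESeq2 (-4.62), limma-trend (-4.80), the fit of 2 groups (-4.56) and the block (-6.51). They were lost for Idh3a with RLE size factors (-0.723), the 1 CPM filter (-0.713) or the block (-0.772), and in set B for Pdp2 with the 1 CPM filter (-5.09). The cause was not tested. In 5 of the 8 ischemic kidneys a count of 0 for Pdp2 limits what can be said of its level to 3 counts or fewer.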
